A study of Mus musculus with 4 samples.

Results

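The 32 genes described here carry glucose from the cell membrane to acetyl-CoA: transporters and hexokinases that bring glucose in, the glycolytic enzymes, the bifunctional enzymes that set glycolytic flux, the lactate dehydrogenases and lactate carriers, and the proteins that gate the entry of pyruvate into mitochondria. They were chosen by gene symbol as members of that route, with no threshold on their values, out of 32285 genes in the files. All 32 symbols were found, on 33 rows, since Aldoa had a pair of identifiers whose counts were summed. Their UMIs (unique molecular identifiers, each standing for 1 captured transcript) were counted by single-cell RNA sequencing of glia-enriched brain cells of male targeted replacement mice, which carry human APOE at the mouse locus, as APOE33 or APOE44. Mice were given NaCl, or 5 mg/kg lipopolysaccharide (LPS, a component of bacterial walls that sets off inflammation) by intraperitoneal injection and killed 24 h later. Each of the 4 groups was 1 library pooled from 3 mice. Values below come in the order APOE3 with NaCl, APOE3 with LPS, APOE4 with NaCl, then APOE4 with LPS. The human alleles were present in every cell of all 4 groups, so no group carried mouse Apoe. With 1 library per group there was no replicate check and no test, and every interval is a 95% interval of counting error only.

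Glycolysis splits glucose into pyruvate in the cytosol. Pyruvate is then reduced to lactate, which leaves or enters cells through monocarboxylate carriers that need the chaperone basigin, or is oxidised in mitochondria by pyruvate dehydrogenase, which the pyruvate dehydrogenase kinases switch off by phosphorylation. Astrocytes are known for strong glycolysis and lactate release, the endothelium of brain capillaries for carrying glucose and lactate across the blood-brain barrier, and activated macrophages and microglia for a shift towards glycolysis.

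The libraries held 73288965 to 114378032 UMIs. APOE4 LPS stood apart, with 29361 barcodes at a median of 1292 UMIs against 14122 to 16078 barcodes at 3969 to 5640.5 UMIs in the others, and 61.9% of its barcodes passed the filters against 92.6% to 93.7%. Any pair of libraries shared 61 to 140 barcode sequences, at most 0.963% of a library. Clusters without a name held 61.9% of the cells of APOE4 LPS, 21.4% of APOE3 LPS and 3.59% and 5.41% of the NaCl libraries. Cluster 29, set beside oligodendrocytes below, held 2703 and 1457 of the unnamed cells of APOE3 LPS and APOE4 LPS. Of the genes fixed as markers of their own class, all 12 for astrocytes, all 13 for microglia and all 14 for endothelial cells had UMIs in every library. The classes were named from these same markers, so this is no check of the names. Gapdh, Pgk1, Pgam1, Ldha, Aldoa and Tpi1 have near-identical processed pseudogenes, so their counts are uncertain where reads could not be placed. A neuron class remained in spite of the enrichment, with 341 to 621 cells per library.

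Each of the main classes held a different version of the route (the heat map of levels by class). Levels are CPM, counts per 1000000, here the UMIs of a gene scaled to the total UMIs of its class. Levels are compared between classes for 1 gene at a time. Shares of isozymes and carriers, and sums over members, also set UMIs of different genes side by side. Whether transcripts of different genes were captured equally well was not tested. Among 12 classes with at least 50 cells in each library, the geometric mean over the 4 libraries was highest in neurons for 7 members, in astrocytes and in choroid plexus for 5 each, in fibroblasts for 4, in ependymal cells, microglia and endothelial cells for 3 each, and in border-associated macrophages for 2. With each cell weighing the same, Gpi1, Tpi1, Pgam1, Eno1 and Pkm were highest in choroid plexus, which then led for 10 members and neurons for 4. Isozymes, which are enzymes of different genes that run the same reaction, were divided between classes.

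**Figure D1:**
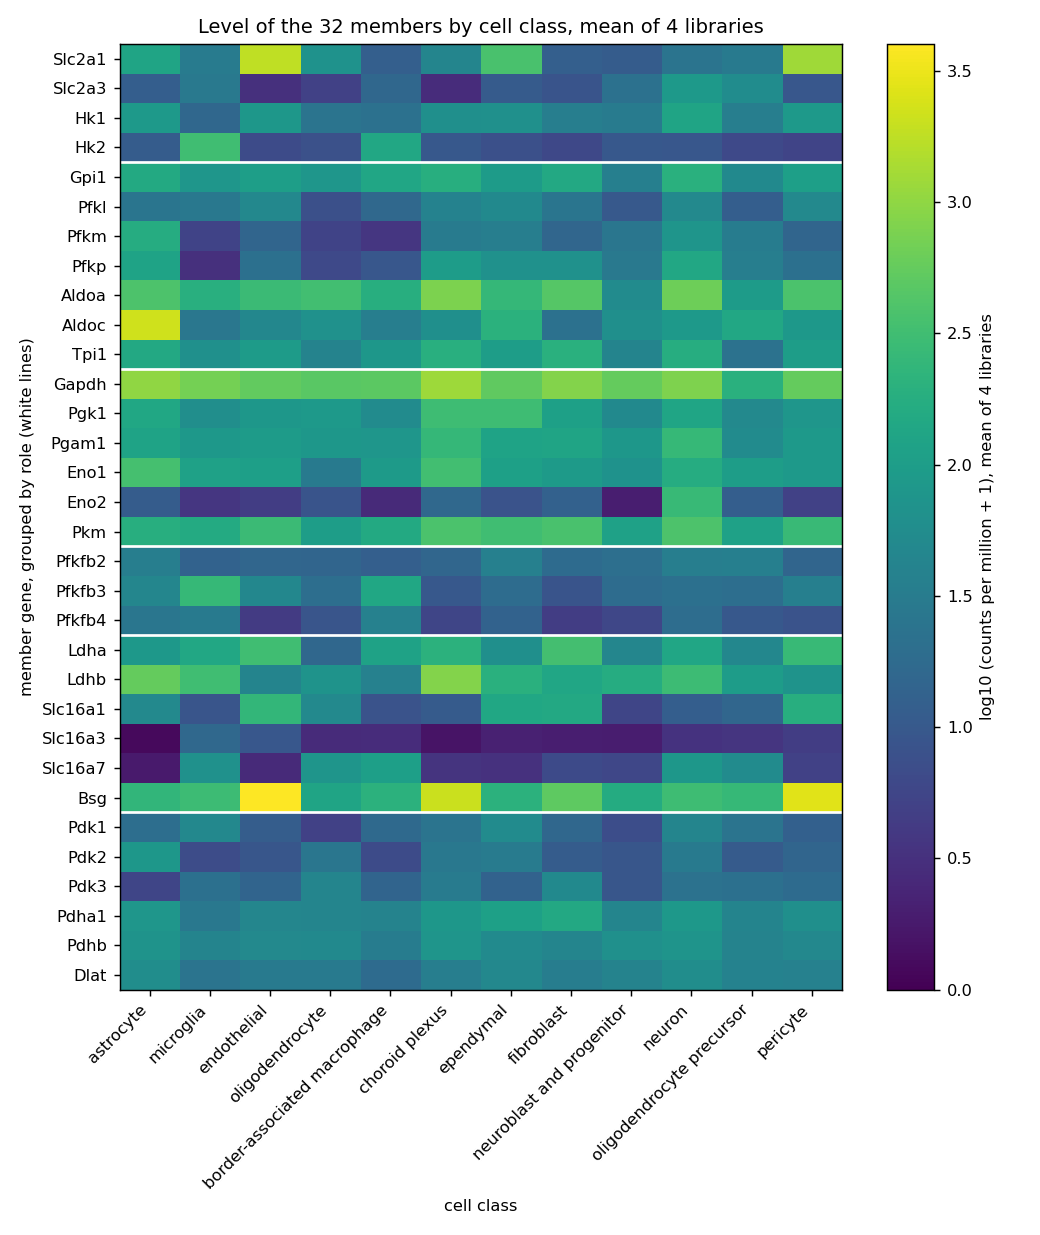
Level of each of the 32 members in 12 cell classes, as the mean of the 4 libraries on a log colour scale of CPM, with members ordered by their role. Isozymes fall into different columns: Aldoc and Pfkm are highest in astrocytes, Eno2 in neurons, Hk2 and Pfkfb3 in microglia, and Slc2a1, Slc16a1 and Bsg in endothelial cells.

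Glucose entry was divided between 2 transporters and 2 hexokinases. Slc2a1 encodes GLUT1, the glucose transporter of the blood-brain barrier, and was highest in endothelial cells, at 1575, 2290, 1735 and 1769 CPM, 1.24 to 2.05 times the level in pericytes, the next class. Slc2a3, the neuronal transporter GLUT3, was highest in neurons in 3 libraries, at 82.6, 101.0 and 89.8 CPM, while in APOE4 LPS the 74.6 CPM of neurons was 0.926 times the 80.6 CPM of oligodendrocyte precursors. Hk1, the hexokinase bound to mitochondria in most brain cells, made up 92.4%, 87.7%, 94.2% and 80.2% of the Hk1 and Hk2 UMIs of astrocytes. In microglia it made up 5.16%, 4.25%, 5.18% and 4.03%, and Hk2 stood at 324, 285, 342 and 306 CPM. Microglia thus carried the inducible hexokinase in all 4 libraries, with or without LPS.

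Astrocytes were the class of Aldoc, the brain aldolase, at 2088, 2173, 2381 and 2212 CPM, which was 5.31 to 22.5 times the level in ependymal cells, the next class. Pfkm, a phosphofructokinase subunit, and Pdk2, a pyruvate dehydrogenase kinase, were also highest in astrocytes in each library, at 162 to 191 and 66.9 to 97.0 CPM. Enolase was split by class: Eno2, the neuron-specific enolase, stood at 368, 243, 354 and 167 CPM in neurons, 13.4 to 28.2 times the level in choroid plexus, the next class, while Eno1 made up 95.9% to 97.9% of enolase UMIs in astrocytes.

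Lactate dehydrogenase subunits were divided between astrocytes and the vessel wall. Ldha, the subunit that favours lactate formation, made up 10.7% to 13.8% of Ldha and Ldhb UMIs in astrocytes and 85.5% to 89.9% in endothelial cells. The carriers were divided as well. Slc16a1 (MCT1) and its chaperone Bsg were highest in endothelial cells in all 4 libraries, at 134 to 396 and 2008 to 7478 CPM. Slc16a3 (MCT4), often described as the carrier by which astrocytes release lactate, was close to undetected in these astrocytes, with 1, 4, 1 and 5 UMIs among 8988043 to 15328339. Slc16a7 (MCT2) was likewise near 0 in astrocytes, at 0.454 to 1.11 CPM. It was highest in border-associated macrophages, at 59.98 to 153 CPM, 1.06 to 1.82 times the level in neurons. With doublets kept, or with barcodes of at least 2000 UMIs, it was highest in neurons. Few captured transcripts do not show that the protein is absent.

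The LPS comparisons asked how each class changed 24 h after the injection. A member was measured when at least 1 of the compared libraries held 50 UMIs of it in that class, and it was counted as higher or lower when its CPM differed at least 1.5-fold. Each of the 4 classes held members that were higher and members that were lower. The panels of LPS ratios show all members in the 4 classes compared.

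**Figure D2:**
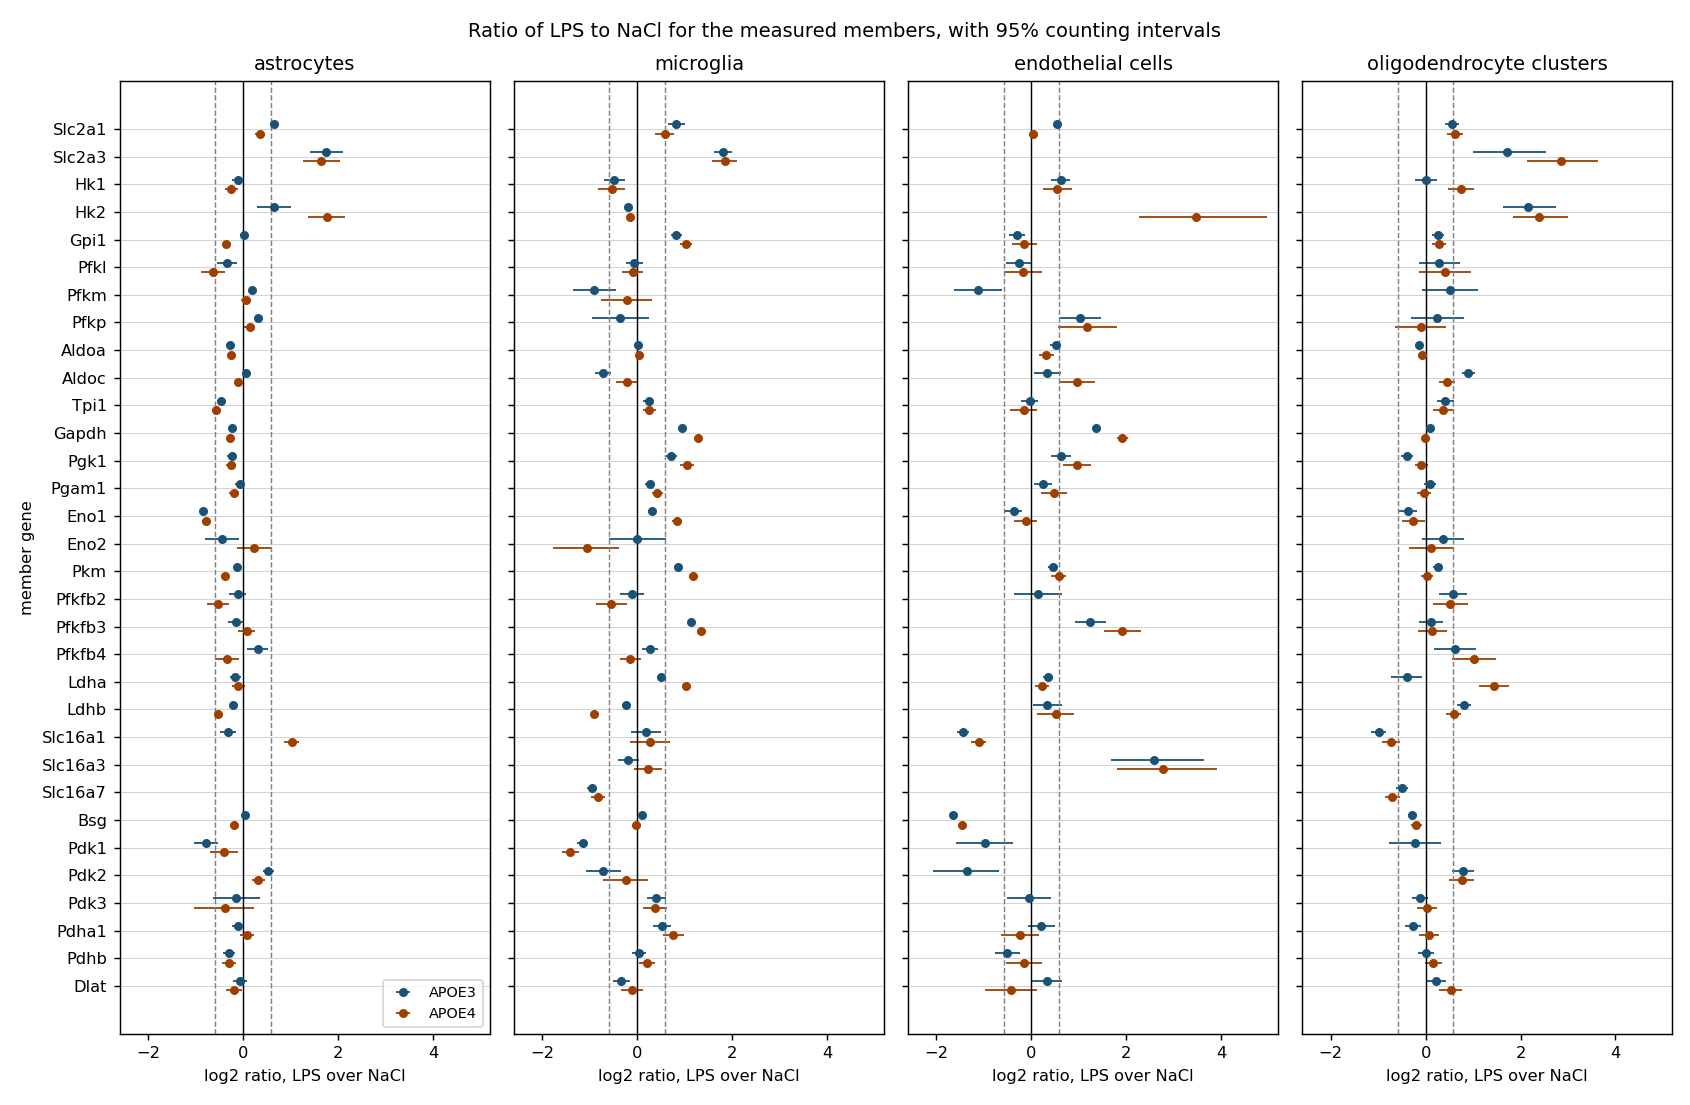
Log2 ratio of CPM in LPS over NaCl for the measured members in astrocytes, microglia, endothelial cells and oligodendrocyte clusters, with 1 point per genotype and bars for 95% counting intervals. Dashed lines mark 1.5-fold; Gapdh and Pfkfb3 lie to the right in microglia and endothelial cells and Slc16a1 and Bsg to the left in endothelial cells.

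In astrocytes, 30 of the 32 members were measured in each genotype. Of these, 3 were higher and 2 lower with LPS in APOE3, where 4.51% of all 12420 measured genes were higher and 6.04% lower, and 3 were higher and 2 lower in APOE4, where 6.41% and 6.12% of 12213 genes were. The shares of members, 10.0% higher and 6.67% lower in both genotypes, rest on few genes and lay near those backgrounds. The median log2 ratio of the members was −0.13 in APOE3 and −0.22 in APOE4, beside −0.07 and −0.05 over all measured genes.

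Both glucose transporters were among the members with higher levels. Slc2a1 stood at 104.6, 164, 106 and 136 CPM, so both LPS libraries lay above both NaCl libraries. Its ratio was 1.57 (1.47 to 1.68) in APOE3 and 1.29 (1.19 to 1.39) in APOE4, short of 1.5-fold in the latter. Slc2a3 stood at 6.07, 20.5, 5.88 and 18.5 CPM, a ratio of 3.37 (2.65 to 4.31) in APOE3 and 3.14 (2.40 to 4.13) in APOE4. Astrocytic Slc2a3 stood at 33.5% to 49.9% of the microglial level and the summed microglial markers at 0.617% to 1.31% of theirs, and their part in the difference was not tested.

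Hk2 stood at 7.50, 11.8, 5.74 and 19.5 CPM in astrocytes, low values that were higher with LPS in both genotypes. The ratio was 1.57 (1.23 to 2.02) in APOE3, 1.44 (1.12 to 1.86) without cells holding at least 20 microglial marker UMIs, and 3.39 (2.60 to 4.46) in APOE4, 3.32 (2.53 to 4.38) without them. The summed microglial markers in astrocytes, all 13 of them with UMIs, were 225, 424, 227 and 376 CPM. Their part in the remaining difference was not tested.

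Lower levels were found at single steps of the pathway. Eno1, which makes phosphoenolpyruvate, stood at 453, 254, 478 and 277 CPM, 1.79-fold lower with LPS in APOE3 and 1.73-fold lower in APOE4. Eno1b, a near-identical gene whose reads can be confused with Eno1, was lower in APOE3, at 6.78 and 3.26 CPM. In APOE4, Eno1b was not counted as lower. Tpi1, triosephosphate isomerase, was 1.39-fold and 1.48-fold lower, below the 1.5-fold mark. Pfkl, the liver-type phosphofructokinase subunit, stood at 28.2, 22.3, 29.7 and 19.2 CPM and was 1.55-fold lower in APOE4 alone. Pdk1, a kinase that inhibits pyruvate dehydrogenase, stood at 25.9, 14.998, 21.0 and 15.9 CPM, 1.73-fold lower in APOE3 and 1.32-fold lower in APOE4. The difference of the Pdk1 and Pfkl effects between genotypes was below 1.5-fold.

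The other members differed by less than 1.5-fold, and over all 30 the intervals lay below 1 for 13 and above 1 for 8 in APOE3, and below 1 for 18 and above 1 for 6 in APOE4. Aldoc (values above) differed by ratios of 1.04 and 0.929, and Gapdh, the step that yields NADH, stood at 1031, 882, 1163 and 966 CPM. Hk1 was at 91.1, 84.2, 93.2 and 78.7 CPM, Ldhb at 577, 499, 700.1 and 485, and Pfkfb3, which makes the activator of phosphofructokinase, at 46.6, 41.7, 42.2 and 44.5. Pdk2 was at 66.9, 97.0, 71.9 and 89.7 CPM, with ratios of 1.45 and 1.25.

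Slc16a1, the lactate and pyruvate carrier MCT1, was the member whose LPS difference depended most on genotype in astrocytes. It stood at 43.4, 34.9, 43.0 and 87.2 CPM, and APOE4 LPS alone was high. The ratio was 0.804 (0.712 to 0.906) in APOE3 and 2.03 (1.83 to 2.26) in APOE4, and the APOE4 LPS library was 2.50-fold (2.22 to 2.81) above APOE3 LPS. The high values lay in 1 cluster (the plot of astrocyte clusters). Cluster 3, led by Gfap, Gbp2 and Iigp1, held 29, 69, 4 and 704 astrocytes, and there Slc16a1 stood at 162 CPM in APOE3 LPS and 187 in APOE4 LPS. In clusters 2 and 5, which held the other astrocytes, it ranged from 29.1 to 53.5 CPM in all 4 libraries. Without cluster 3, the log2 LPS ratio in APOE4 was −0.03 in place of 1.02. Hk2 was also highest in cluster 3, at 19.5 and 35.1 CPM in the LPS libraries, and its APOE4 ratio stayed above 1.5-fold without the cluster.

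**Figure D3:**
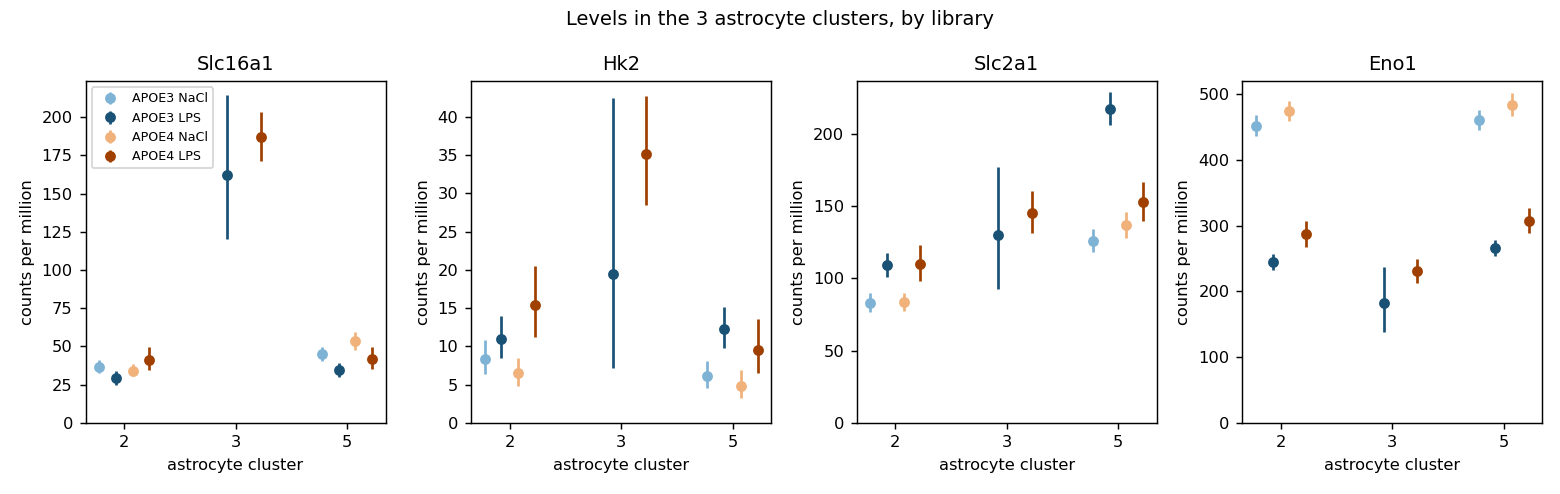
CPM of Slc16a1, Hk2, Slc2a1 and Eno1 in each astrocyte cluster and library with at least 50 cells, with bars for 95% Poisson intervals of counting error. Slc16a1 lies at 162 and 187 CPM in cluster 3 and at 29.1 to 53.5 CPM in clusters 2 and 5.

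Microglia numbered 3211, 4298, 2927 and 1731, or 24.7%, 31.2%, 24.4% and 9.52% of cells. They held 4609, 7934, 4757 and 7147 UMIs per cell, and CPM sets these totals equal. A cluster led by Marco, Saa3 and Ccl5, described among the other observations, stayed unnamed and outside this class. Most of its LPS cells came from APOE4 LPS. Its part in the microglial differences between genotypes was not tested. NaCl microglia lay mostly in clusters 6 and 7 and LPS microglia in clusters 8 and 11, the latter led by Tnf, Il1b and Il1a, and only 55 and 109 LPS cells fell in clusters 6 and 7. Of 32 measured members in APOE3, 7 were higher and 5 lower, beside 9.68% and 18.3% of 11968 measured genes. Of 31 in APOE4, 9 were higher and 4 lower, beside 13% and 19.5% of 11032. The median over all measured genes was −0.17 and −0.14 on the log2 scale, against 0.06 and 0.20 for the members, so more members lay above that shift than below it. With the median of all genes set to 0, Aldoc and Pdk2 were no longer 1.5-fold lower in APOE3.

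Of the 6 members of lower glycolysis, where ATP and NADH are made, Gapdh, Pgk1 and Pkm were higher in both genotypes. Eno1 was higher and Eno2 lower in APOE4, and Pgam1, with ratios of 1.20 and 1.34, was not counted in either. Gapdh, the first enzyme of this phase, stood at 488, 943, 463 and 1118 CPM. Both LPS libraries lay above both NaCl libraries, with ratios of 1.93 (1.88 to 1.98) and 2.41 (2.34 to 2.49). Pgk1, the next enzyme, stood at 43.2, 70.4, 44.96 and 93.0 CPM, 1.63-fold and 2.07-fold higher. Pkm, pyruvate kinase, stood at 115, 208, 109 and 248 CPM, 1.81-fold and 2.27-fold higher. Gpi1, which makes fructose 6-phosphate further up the pathway, stood at 53.9, 95.02, 56.6 and 115 CPM, 1.76-fold and 2.04-fold higher. These 4 enzymes were thus higher in both genotypes, 1.63-fold to 1.93-fold in APOE3 and 2.04-fold to 2.41-fold in APOE4. Eno1, at 99.4, 123, 90.2 and 161 CPM, passed 1.5-fold in APOE4 only, with ratios of 1.23 and 1.79.

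Summed over the 6 members of lower glycolysis, microglia held 817, 1429, 789 and 1726 CPM. The same sum in astrocytes was 1951, 1554, 2145 and 1660.1 CPM, so that in the LPS libraries the level in microglia lay close to that in astrocytes, and in NaCl it did not. This sum is led by Gapdh in both classes.

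In glucose entry into microglia, Slc2a3 was higher in both genotypes, Slc2a1 in APOE3, and Hk2 was within 1.5-fold. Slc2a3 stood at 17.6, 61.0, 11.8 and 42.2 CPM, 3.47-fold (3.05 to 3.97) and 3.58-fold (3.00 to 4.30) higher, and Slc2a1 at 21.9, 38.8, 26.3 and 39.2 CPM, 1.77-fold and 1.49-fold higher. Hk2 (values above) had ratios of 0.878 and 0.896. Pfkfb3 stood at 178, 388, 157 and 396 CPM, 2.18-fold (2.09 to 2.28) and 2.53-fold (2.40 to 2.66) higher. Within the LPS microglia its level was 511 and 481 CPM in cluster 11 and 180 and 181 CPM in cluster 8, so the cluster led by cytokine genes held more in each genotype. In NaCl cells the clusters also differed, with 231 and 211 CPM in cluster 7, led by Atf3, and 113 and 95.7 in cluster 6.

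At the lactate and pyruvate steps, microglia moved in both directions. Ldha stood at 108, 154, 109 and 223 CPM, 1.42-fold higher in APOE3 and 2.05-fold (1.92 to 2.18) in APOE4. Ldhb, the subunit that favours pyruvate, stood at 355, 300, 425 and 226 CPM, 1.18-fold lower in APOE3 and 1.88-fold lower in APOE4. The share of Ldha in the UMIs of both subunits was therefore 23.4% (22.4 to 24.4), 33.9% (33.1 to 34.6), 20.4% (19.5 to 21.4) and 49.7% (48.3 to 51.0), highest in APOE4 LPS. Slc16a7 (MCT2), the high-affinity lactate carrier, stood at 92.6, 48.0, 82.7 and 46.5 CPM, 1.93-fold and 1.78-fold lower, and Bsg was near its NaCl level, at 271, 288, 308 and 302 CPM.

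Pdk1 in microglia stood at 73.9, 33.29, 73.3 and 27.6 CPM, 2.22-fold and 2.65-fold lower with LPS in both genotypes. Pdha1, a catalytic subunit of the enzyme that Pdk1 inhibits, stood at 20.9, 29.9, 21.9 and 37.2 CPM, 1.43-fold and 1.70-fold higher. Pdk2 was 7.43, 4.52, 6.32 and 5.33 CPM, 1.65-fold lower in APOE3 and 1.18-fold lower in APOE4. Pdk3, another of the kinases, lay on the same side of 1 as Pdha1, with ratios of 1.32 and 1.29. Pdhb and Dlat had ratios of 0.793 to 1.15.

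Members with low levels in microglia were lower in 1 genotype. Pfkm stood at 5.27, 2.82, 5.10 and 4.36 CPM, 1.87-fold lower in APOE3, and Aldoc at 34.5, 20.9, 26.4 and 22.7 CPM, 1.65-fold lower in APOE3. Eno2 stood at 2.37, 2.35, 4.38 and 2.10 CPM, 2.08-fold lower in APOE4, where the NaCl library was the one that stood out. Summed neuronal markers were also highest there, at 45.1, 38.4, 75.1 and 41.8 CPM, and their part in the Eno2 value was not tested. Aldoa, Pgam1, Pfkfb4 and Pdhb, at 175 to 201, 69.1 to 103, 26.0 to 34.3 and 38.2 to 48.6 CPM, were the highest members of their roles without a 1.5-fold difference.

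Clusters 8 and 11 also held NaCl cells, 80 and 116 of APOE3 and 42 and 51 of APOE4. LPS was not compared with NaCl within those clusters. The comparison was made in clusters 6 and 7, where most NaCl microglia lay. There the 55 and 109 LPS cells gave smaller differences for most members counted above. There Slc2a3 and Pfkfb3 were still at least 1.5-fold higher in both genotypes and Gapdh in APOE3, and Aldoc in APOE3 and Ldhb and Pdk1 in APOE4 were still lower. Pdk2 in APOE3 and Eno2 in APOE4 gave no value there. Gapdh and Pgk1 had log2 ratios of 0.63 and 0.16 in APOE3 and 0.45 and 0.13 in APOE4, and those for Pkm were 0.21 and 0.39. Of the 12 members called in APOE3 and 13 in APOE4, 3 and 5 stayed past 1.5-fold under every alternative that gave a value for them. Whether this reflects a change within clusters or a change of clusters cannot be told apart.

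**Figure D4:**
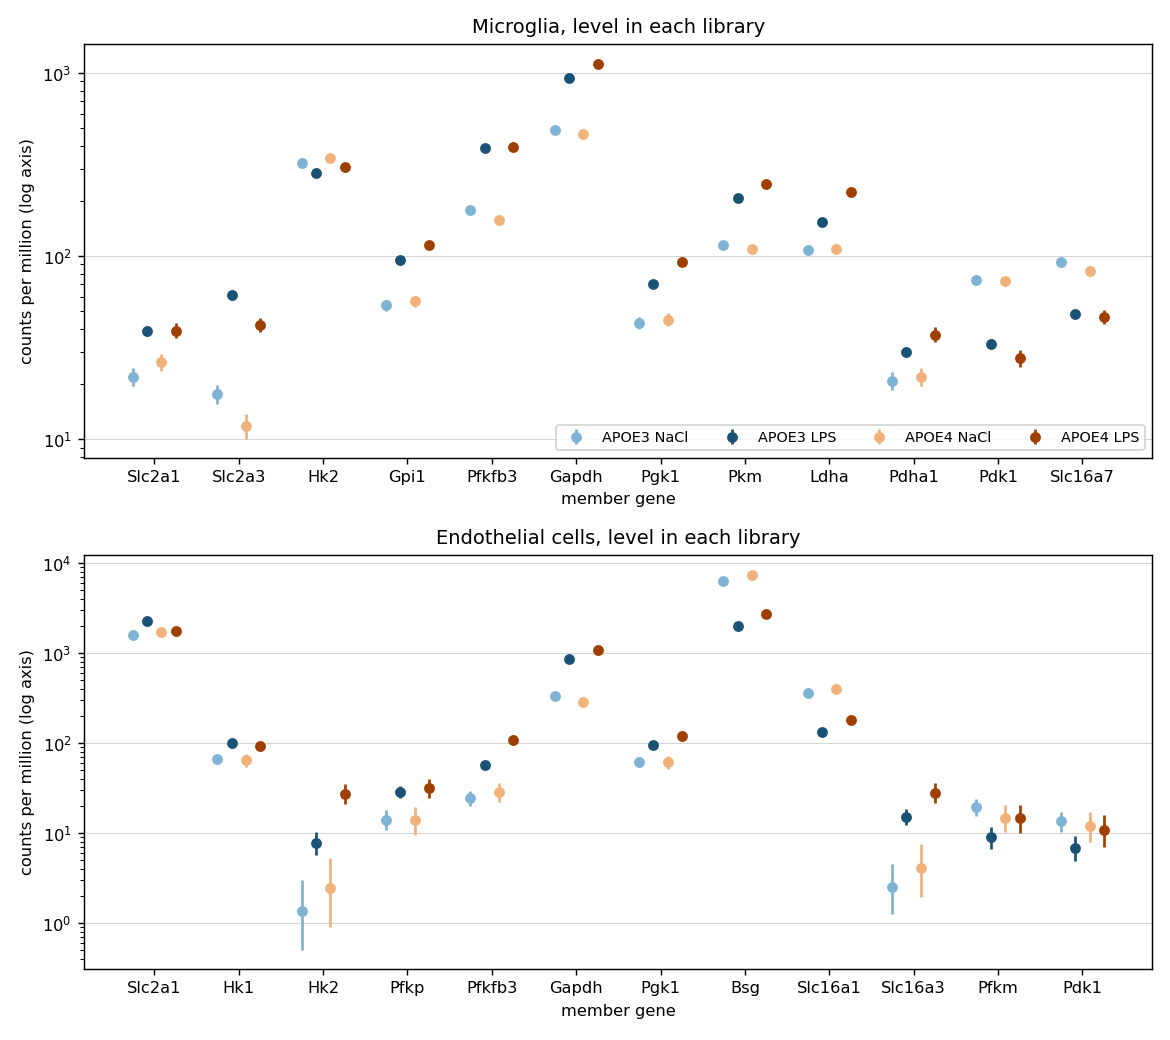
CPM of members with higher or lower levels in microglia and endothelial cells in each of the 4 libraries, with bars for 95% Poisson intervals of counting error. For Gapdh and Pfkfb3 both LPS libraries lie above both NaCl libraries in either class, and for endothelial Slc16a1 and Bsg both lie below.

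Endothelial cells held more of several glycolytic transcripts after LPS and less of the lactate carrier Slc16a1 and its chaperone. They numbered 856, 824, 606 and 387, lay mostly in cluster 9 with NaCl and cluster 18 with LPS, and held 5101, 7438, 4020 and 5986 UMIs per cell. Of 27 measured members in APOE3, 6 were higher and 5 lower, beside 12.2% and 14.6% of 9542 genes. Of 23 in APOE4, 7 were higher and 2 lower, beside 15.4% and 18.6% of 7565. The median of the members was 0.25 and 0.31, and that of all genes −0.07 and −0.10.

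Bsg, which encodes basigin, stood at 6284, 2008, 7478 and 2721 CPM in endothelial cells, 3.13-fold and 2.75-fold lower with LPS. Slc16a1, the carrier that Bsg escorts to the membrane, stood at 365, 134, 396 and 183 CPM, 2.72-fold and 2.16-fold lower. Both LPS libraries lay below both NaCl libraries for either gene. Slc16a3 (MCT4), a carrier of glycolytic cells, moved the other way, at 2.52, 15.2, 4.10 and 28.1 CPM on 11, 93, 10 and 65 UMIs, with ratios of 6.02 (3.22 to 12.5) and 6.84 (3.49 to 14.9). It made up 0.686%, 10.2%, 1.03% and 13.3% of the UMIs of these carriers, so Slc16a1 remained the larger in every library.

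Gapdh stood at 337, 860.0, 287 and 1084 CPM in endothelial cells, 2.55-fold (2.41 to 2.71) and 3.78-fold (3.47 to 4.11) higher. Pgk1 was at 61.4, 94.6, 61.6 and 120.0 CPM, 1.54-fold and 1.95-fold higher, and Pkm at 242, 334, 232 and 345 CPM, 1.38-fold and 1.49-fold higher. Pfkfb3, known for driving glycolysis in growing vessels, stood at 24.5, 57.8, 28.7 and 108 CPM, 2.36-fold (1.89 to 2.95) and 3.76-fold (2.87 to 4.97) higher. Pfkp, the platelet-type phosphofructokinase subunit, was at 14.2, 28.9, 14.0 and 31.5 CPM, 2.03-fold and 2.26-fold higher. Pfkl, the subunit with the most UMIs, stood at 54.7, 45.4, 48.4 and 42.7 CPM, with ratios of 0.829 and 0.882. Gapdh, Pgk1, Pfkfb3 and Pfkp were thus higher in both genotypes, and Pkm and Pfkl were within 1.5-fold.

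Slc2a1 had ratios of 1.45 in APOE3 and 1.02 in APOE4, a log2 difference of −0.51 (−0.59 to −0.44) between genotypes, and Hk1, at 66.2, 101.3, 64.4 and 93.7 CPM, of 1.53 and 1.45. Aldoc stood at 36.2, 45.7, 36.9 and 71.7 CPM, 1.26-fold and 1.94-fold higher. Astrocytes held 2173 and 2212 CPM of it in the LPS libraries. Its level was higher with LPS also in ependymal cells, at 92.8, 357, 120 and 417 CPM. In fibroblasts, at 18.4, 12.3, 13.4 and 64.4 CPM, it was higher in APOE4 only. The part of astrocyte RNA in the endothelial values was not tested. Ldha, at 277, 352, 283 and 330 CPM, and Aldoa, at 240, 341, 260 and 323 CPM, stayed below 1.5-fold.

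At the gate to mitochondria, endothelial Pdk1 stood at 13.5, 6.85, 11.9 and 10.8 CPM and Pdk2 at 12.1, 4.73, 10.7 and 7.34 CPM. Both were lower in APOE3 LPS, 1.97-fold and 2.57-fold, on 42 and 29 UMIs, and neither was measured in the APOE4 comparison. Pfkm, at 19.5, 8.97, 14.8 and 14.7 CPM, was 2.17-fold lower in APOE3. Pdhb was within 1.5-fold, at 39.2 to 55.9 CPM. Pfkfb2 stood at 13.1, 14.4, 19.7 and 11.7 CPM, with a ratio of 1.10 in APOE3, and its 48 and 27 UMIs were too few for it to be measured in APOE4, where the ratio was 0.592.

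Hk2 had the highest LPS ratio of the measured members in APOE4 endothelial cells, and it moved with microglial markers. It stood at 1.37, 7.83, 2.46 and 27.2 CPM on 6, 48, 6 and 63 UMIs, 11.0-fold (4.80 to 31.2) higher in APOE4. The 13 microglial markers, all with UMIs, summed to 211, 1065, 204 and 2568 CPM in the endothelial class, or 0.605%, 3.12%, 0.553% and 8.97% of their level in microglia. Endothelial Hk2 was 0.424%, 2.75%, 0.721% and 8.88% of its own microglial level, close to the share of the markers in each library (the plot of shares of the microglial level). Without the 8, 45, 3 and 36 cells that held at least 20 microglial marker UMIs, Hk2 had 5, 7, 3 and 4 UMIs and was no longer measured. Among these remaining cells it could not be compared, and it is counted above only for the class as a whole.

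In the LPS libraries, endothelial Slc16a3 stood at 107% and 168% of the microglial level, Pfkfb3 at 14.9% and 27.3%, Gapdh at 91.2% and 96.9%, Pgk1 at 135% and 129%, Aldoc at 218% and 316%, Hk1 at 802% and 729% and Pfkp at 1448% and 2166%. Without the same cells, the LPS ratios of Gapdh were 2.55 and 3.58, those of Pfkfb3 2.08 and 3.27, those of Slc16a3 7.31 and 6.32, and Bsg and Slc16a1 were 3.07-fold and 2.64-fold lower in APOE3 and 2.37-fold and 1.83-fold lower in APOE4. In APOE4 the 46 UMIs of Slc16a3 were then too few for it to be measured. Neutrophil markers summed to 8.24, 3059.8, 69.4 and 6033 CPM, nearly all of it Lcn2. Immediate-early genes, which dissociation of tissue can induce, summed to 2779, 3892, 3996 and 4592 CPM, and their part in these results was not tested.

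**Figure D5:**
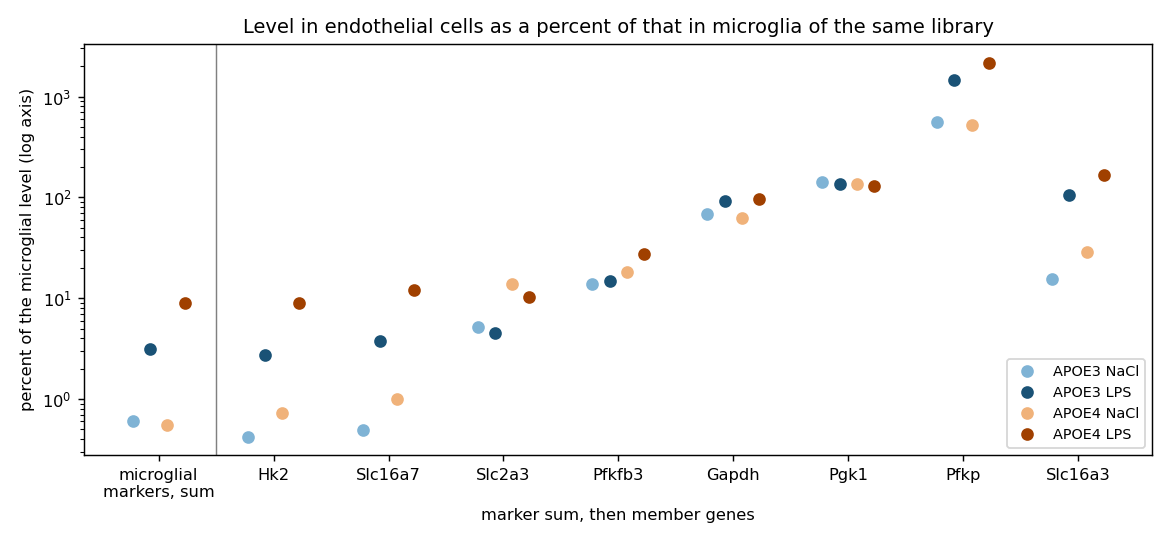
Level of Hk2, Slc16a7, Slc2a3, Pfkfb3, Gapdh, Pgk1, Pfkp and Slc16a3 in endothelial cells as a percentage of that in microglia of the same library. The same percentage is shown for the summed microglial markers, on a log axis. Hk2 follows the markers in all 4 libraries, at 0.424% to 8.88%, while Slc16a3 and Pfkfb3 lie above them.

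Oligodendrocytes had to be compared by cluster, because LPS cells with oligodendrocyte markers did not join the NaCl cells. Cluster 0, with 2229 and 2230 cells of the NaCl libraries and 12 of 12 oligodendrocyte markers, was set against cluster 29, with 2703 and 1457 cells of the LPS libraries and 11 of 12, a choice made after the clusters were seen. Fibroblast markers, which kept cluster 29 without a name, summed to 1764.5, 15287, 1705 and 17427 CPM, nearly all of it Apod. Immediate-early genes summed to 1421, 3322, 1309 and 3095 CPM there, and their part in what follows was not tested. Of 31 measured members in APOE3, 6 were higher and 1 lower, beside 11.6% and 10.5% of 11088 genes, and of 29 in APOE4, 8 were higher and 2 lower, beside 12.3% and 10.6% of 10333. The members' median was 0.22 and 0.16, and that of all genes −0.04 and 0.00.

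Hk2 and Slc2a3 were higher in the LPS cluster, at low levels. Hk2 stood at 3.00, 13.5, 2.99 and 15.7 CPM, 4.49-fold (3.10 to 6.71) and 5.27-fold (3.57 to 7.97) higher. Slc2a3 stood at 1.69, 5.58, 1.72 and 12.4 CPM, 3.31-fold (1.99 to 5.80) and 7.19-fold (4.38 to 12.4) higher. Hk2 in these LPS cells was 4.73% and 5.14% of the microglial level and the microglial markers 0.953% and 0.996% of theirs. Without cells of at least 20 microglial marker UMIs its ratios were 5.82 and 5.72, and the part of microglial RNA in them was not tested. Slc2a1 stood at 54.9, 80.6, 53.8 and 82.6 CPM, with ratios of 1.47 and 1.53, the latter below 1.5-fold in 6 of 11 alternatives at log2 ratios of 0.50 to 0.57, and Hk1 at 23.8, 23.9, 17.6 and 29.6 CPM, 1.68-fold higher in APOE4. Hk1 made up 88.8%, 64.0%, 85.5% and 65.3% of the UMIs of both hexokinases.

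Gapdh, Aldoa and Pfkfb3 were within 1.5-fold in oligodendrocytes. Gapdh stood at 456, 486, 498 and 494 CPM, Aldoa at 328, 299, 340.5 and 322, and Pfkfb3 at 19.0, 20.5, 17.3 and 19.1. Aldoc was at 50.8, 94.7, 53.4 and 73.0 CPM, 1.86-fold higher in APOE3 and 1.37-fold in APOE4, and the part of astrocyte RNA in this was not tested. Pfkfb4, another enzyme of the phosphofructokinase activator, was at 5.62, 8.61, 6.25 and 12.6 CPM, 1.53-fold and 2.02-fold higher. Gapdh and Pfkfb3 thus had ratios of 0.992 to 1.10 there, and Hk2 and Slc2a3 ratios of 3.31 to 7.19.

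Lactate carriers were lower in oligodendrocytes. Slc16a1, through which oligodendrocytes are known to supply axons, stood at 66.5, 33.6, 65.4 and 39.7 CPM, 1.98-fold and 1.65-fold lower. Slc16a7 stood at 91.9, 65.3, 89.1 and 54.8 CPM, 1.41-fold and 1.63-fold lower. Bsg, at 129, 106, 141 and 123 CPM, was within 1.5-fold. Slc16a1 was thus lower with LPS in both endothelial cells and oligodendrocytes, in both genotypes, and higher in APOE4 astrocytes.

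Ldha in oligodendrocytes stood at 13.1, 9.94, 11.8 and 31.8 CPM, so that APOE4 LPS alone was high. The ratio was 0.758 (0.604 to 0.952) in APOE3 and 2.70 (2.18 to 3.36) in APOE4, and APOE4 LPS was 3.20-fold (2.64 to 3.89) above APOE3 LPS. Among Ldha and Ldhb UMIs, the Ldha share in oligodendrocytes was 21.1%, 10.4%, 16.3% and 25.9%. That share was highest in APOE4 LPS also in microglia, ependymal cells (39.8%, beside 18.8% in APOE3 LPS), neurons (40.6%) and choroid plexus (22.5%). It was not in endothelial cells, pericytes and fibroblasts. No doublets were removed from APOE4 LPS, and the part of this in the Ldha values was not tested. Summed microglial markers in oligodendrocytes were 325 CPM in APOE3 LPS and 285 in APOE4 LPS. Ldhb was at 49.1, 85.9, 60.3 and 91.0 CPM, 1.75-fold and 1.51-fold higher, but with all clusters that hold oligodendrocyte markers the log2 ratios were 0.06 and −0.17. Pdk2 stood at 18.8, 32.4, 19.4 and 32.9 CPM, 1.72-fold and 1.70-fold higher, and Pdhb at 46.8, 47.0, 49.6 and 55.5.

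Genotype made little difference to the members in NaCl mice. In astrocytes none of 30 was 1.5-fold different, beside 0.735% of genes higher and 2% lower in APOE4. In microglia 1 of the members, Eno2, was higher (1.85-fold, 1.20 to 2.89) and none lower, beside 1.25% and 1.45%. In endothelial cells Pfkfb2 was 1.51-fold (1.01 to 2.26) higher in APOE4 and none lower, beside 0.936% and 2.9%, and in oligodendrocytes Pfkp was 1.70-fold (1.15 to 2.55) higher and none lower, beside 0.974% and 1.48%. Eno2 rested on 35 and 61 UMIs, Pfkfb2 on 57 and 48 and Pfkp on 42 and 74, and of these Eno2 alone stayed past 1.5-fold under every alternative tried.

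After LPS more members differed between genotypes in astrocytes, endothelial cells and oligodendrocytes, but not in microglia, all against a library with a different depth. The share of all genes that were higher in APOE4 was also larger after LPS than in NaCl in every class compared. In astrocytes 2 of 30, Slc16a1 and Hk2, were higher in APOE4 and none lower, beside 4.23% and 1.61% of genes, and neither was 1.5-fold different without cluster 3. Of 9 measured immediate-early genes, 6 were higher in these APOE4 LPS astrocytes and none lower, with Junb at 60.6 CPM against 17.9. Their part in the astrocyte differences was not tested. In microglia only Pfkm was higher, 1.55-fold (1.09 to 2.19), beside 4.4% and 2.92%. In endothelial cells Hk2, Pfkm, Aldoc, Pfkfb3 and Slc16a3 were higher and Dlat, a core subunit of pyruvate dehydrogenase, 1.78-fold lower, beside 5.83% and 4.24%. None of these 6 stayed past 1.5-fold under every alternative. With doublets kept in all 4 libraries, the log2 ratio of Hk2, which moved with the microglial markers, was 0.25 in place of 1.80, that of Pfkfb3 0.44 in place of 0.90, that of Aldoc 0.49 in place of 0.65 and that of Dlat −0.43 in place of −0.83. With each cell weighing the same, Pfkm was at 0.56 and Slc16a3 at 0.40. In oligodendrocytes Ldha and Slc2a3 were higher, 3.20-fold and 2.22-fold, beside 3.99% and 1.82%.

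How far the LPS response differed by genotype, as the log2 LPS ratio of APOE4 minus that of APOE3, is given with an approximate counting interval for the members in which it passed 1.5-fold. In astrocytes it was 1.34 (1.11 to 1.57) for Slc16a1, 1.11 (0.59 to 1.62) for Hk2, 0.68 (0.17 to 1.18) for Eno2 and −0.64 (−0.97 to −0.32) for Pfkfb4. In microglia it was −1.05 (−1.92 to −0.17) for Eno2, 0.68 (0.01 to 1.35) for Pfkm and −0.66 (−0.75 to −0.58) for Ldhb, and in oligodendrocytes 1.84 (1.40 to 2.28) for Ldha, 1.25 (0.39 to 2.12) for Pdk1, 1.12 (0.11 to 2.13) for Slc2a3 and 0.74 (0.39 to 1.10) for Hk1. In endothelial cells 8 members passed 1.5-fold, with Pfkm at 1.11 (0.27 to 1.94), Pfkfb3 at 0.67 (0.18 to 1.17), Aldoc at 0.62 (0.15 to 1.08), Pfkfb2 at −0.89 (−1.73 to −0.06) and Dlat at −0.76 (−1.37 to −0.16), while the intervals of Hk2, Pdk1 and Pdk2 held 0.

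The windows upstream of members that moved in several classes are shown with the core of the hypoxia response element, the motif bound by hypoxia-inducible factors, since many glycolytic genes are known targets of these factors. The motif searched was ACGTG or GCGTG on either strand, with overlaps allowed, in the 250 bases before a RefSeq transcript start (GRCm38.p6). Where a member had several windows, the window with its start nearest to the annotated start of the gene was used. The window of Gapdh lies inside its annotated gene, and that of Pfkfb3 overlaps its gene. The motif was found in 12679 of 32851 windows (38.6%, median GC 52.4%) and in 22 of the 29 members with a window (75.9%, median GC 61.6%). Bsg, Slc2a3 and Slc16a7 had no window in the table used. Of the members higher with LPS in both genotypes, 3 of 5 windows held it in microglia and 5 of 5 in endothelial cells, and the window of Pdk1, lower in both genotypes in microglia, and that of Slc16a1, lower in endothelial cells, held it too. A match describes letters and not binding, and the windows of the members differ from all windows in GC content. Capitals mark the matches, each sequence is read 5′ to 3′ on the strand of its gene, and the windows are chr6:125165774-125166023 (minus strand) for Gapdh, chrX:106186850-106187099 (plus) for Pgk1, chr2:11553930-11554179 (minus) for Pfkfb3, chr2:71872974-71873223 (plus) for Pdk1 and chr3:104638414-104638663 (plus) for Slc16a1. They show members that were higher (Gapdh, Pgk1, Pfkfb3) beside members that were lower (Pdk1, Slc16a1).
Gapdh: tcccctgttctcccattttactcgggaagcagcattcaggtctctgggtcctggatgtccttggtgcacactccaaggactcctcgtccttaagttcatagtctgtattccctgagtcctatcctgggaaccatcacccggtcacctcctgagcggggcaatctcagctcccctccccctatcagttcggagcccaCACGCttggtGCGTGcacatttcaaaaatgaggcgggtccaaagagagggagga
Pgk1: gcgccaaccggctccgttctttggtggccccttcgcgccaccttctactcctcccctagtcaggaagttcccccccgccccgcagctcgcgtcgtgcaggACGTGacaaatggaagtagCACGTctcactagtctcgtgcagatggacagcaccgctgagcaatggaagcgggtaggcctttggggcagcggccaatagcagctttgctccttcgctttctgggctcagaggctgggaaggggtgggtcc
Pfkfb3: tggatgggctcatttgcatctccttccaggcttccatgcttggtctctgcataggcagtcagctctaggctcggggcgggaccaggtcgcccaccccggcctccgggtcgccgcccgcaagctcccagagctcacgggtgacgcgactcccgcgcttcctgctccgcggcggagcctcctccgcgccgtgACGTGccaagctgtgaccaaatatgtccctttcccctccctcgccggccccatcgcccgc
Pdk1: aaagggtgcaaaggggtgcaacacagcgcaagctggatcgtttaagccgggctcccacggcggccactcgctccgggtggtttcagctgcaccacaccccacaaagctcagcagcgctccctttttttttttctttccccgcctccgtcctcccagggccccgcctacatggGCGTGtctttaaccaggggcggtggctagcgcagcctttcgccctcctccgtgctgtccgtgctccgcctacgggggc
Slc16a1: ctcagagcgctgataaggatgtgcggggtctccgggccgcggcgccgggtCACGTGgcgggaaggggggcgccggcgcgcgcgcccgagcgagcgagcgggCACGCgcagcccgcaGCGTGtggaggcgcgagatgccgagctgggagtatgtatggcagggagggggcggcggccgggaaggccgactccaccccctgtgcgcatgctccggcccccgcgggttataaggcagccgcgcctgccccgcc
The window of Slc16a1 held 4 matches, those of Gapdh and Pgk1 2 each and those of Pfkfb3 and Pdk1 1 each. Members on both sides of the LPS comparison thus carried the core.

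Neighbouring pathways were counted from lists of genes outside the members, with the same limit of 1.5-fold, beside the shares of all measured genes given above for each class. Of the 21 enzymes of the tricarboxylic acid cycle, which oxidises acetyl-CoA, none of 21 measured was higher or lower with LPS in APOE3 astrocytes and 1 was lower in APOE4. In microglia 1 of 19 was higher in APOE3 and 3 of 19 in APOE4, near the 9.68% and 13% of all genes, among them Idh3a, an isocitrate dehydrogenase subunit, from 21.0 to 31.9 CPM and from 19.3 to 40.3. Pyruvate import and dehydrogenase genes outside the members gave 0 of 9 and 0 of 8 in microglia and 0 of 11 in astrocytes of either genotype. In oligodendrocytes Mpc2, a subunit of the mitochondrial pyruvate carrier named here after its value was seen, was lower in APOE4, from 183 to 120.1 CPM. There 2 of 10 were higher in each genotype, beside 11.6% and 12.3% of all genes, among them Pdk4, another inhibitory kinase of pyruvate dehydrogenase, from 10.2 to 83.1 CPM in APOE3 and from 20.7 to 111.0 in APOE4, in the same direction as Pdk2.

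Of the 11 genes of the pentose phosphate pathway, which branches from glucose 6-phosphate, 1 of 11 was higher and 1 lower in APOE3 microglia and 4 of 11 were higher in APOE4. Among other sugar carriers, Slc2a5, a fructose transporter that marks microglia, was at 180 CPM in APOE3 NaCl and 49.5 in APOE3 LPS, and Slc2a6, a lysosomal carrier, was higher, from 1.9596 to 11.7 CPM in APOE3 and from 1.65 to 5.90 in APOE4. Of the hypoxia-inducible genes outside the members, 2 of 12 were higher and 3 lower in APOE3 microglia, 3 of 12 higher and 3 lower in APOE4, and in oligodendrocytes 5 of 14 were higher and 2 lower in APOE3 and 4 of 15 higher and 2 lower in APOE4. These lists thus moved in both directions. Ddit4, an inhibitor of mTOR signalling on that list, was higher in microglia, from 12.97 to 55.1 CPM in APOE3 and from 12.7 to 59.7 in APOE4. Txnip, which limits glucose uptake through GLUT1, was higher in astrocytes, from 20.6 to 61.7 CPM in APOE3 and from 17.7 to 88.2 in APOE4, and lower in microglia, from 723 to 374 CPM in APOE3 and from 671 to 347 in APOE4.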

How the data were processed

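Members, lists and tests were chosen with earlier results of these data known. The authors deposited whole-number UMI counts per gene and barcode, which came from Cell Ranger (7.0.1, per the file headers; 7.0 and mm10, per the submitters' processing notes). Samples were grouped by title. Barcodes needed 500 genes, 1000 UMIs and a mitochondrial share of no more than 20%. Scrublet doublets (expected rate 0.8% per 1000 barcodes) were removed, 1404, 1268 and 1069 in the first 3 libraries. It called 0 in APOE4 LPS and had not worked there. The remaining 56976 cells were clustered with scanpy 1.11.5 (2000 variable genes without the members, 30 components, 15 neighbours, Leiden resolution 1, no batch integration). Of 32 clusters, 7 stayed unnamed; a name needed 3 markers at least 2-fold above other clusters in 25% of cells, 33.3% of the list, and at least as many of the 10 leading genes on that list as on any other. UMIs were summed per class and library. Ratios have exact conditional binomial, levels exact Poisson and shares exact Clopper-Pearson 95% intervals, which cover counting error only. No test was made. The ratio intervals were tested on counts simulated with counting error only. Members that were measured, 1.5-fold different with LPS in either genotype and with an interval leaving out 1 are named with all 4 values; of the others, the highest of each role.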

Additional observations from a re-analysis of the deposited data

Results flagged for a closer look

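Slc16a1, Pfkfb4 and Ldha had LPS differences in opposite directions in the 2 genotypes, with 1 library per group, and the differences between genotypes were not tested. In astrocytes, Slc16a1 stood at 43.4 and 34.9 CPM in APOE3 NaCl and LPS and at 43.0 and 87.2 CPM in APOE4, and its log2 LPS ratio was 1.34 higher in APOE4. Without astrocyte cluster 3, the log2 LPS ratio of Slc16a1 in APOE4 was −0.03 in place of 1.02, so the directions were then no longer clearly opposite. In astrocytes, Pfkfb4 stood at 22.8 and 28.3 CPM in APOE3 and at 28.2 and 22.4 CPM in APOE4, a difference of −0.64. In oligodendrocytes, Ldha stood at 13.1 and 9.94 CPM in APOE3 and at 11.8 and 31.8 CPM in APOE4, a difference of 1.84. Several other classes also had their highest share of Ldha in APOE4 LPS, the library from which no doublets were removed.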

How the results depend on the processing

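No paired analysis was possible because each group was 1 library. Counts of members past 1.5-fold were within 1.5 times the reported count in 182 recomputations and further away in 33, of which 1 compared LPS with NaCl within a genotype. A similar count can hold other members. Of the 12 and 13 microglial members counted with LPS, 3 and 5 stayed past 1.5-fold in every alternative that gave a value. Without clusters mostly of 1 library, APOE4 astrocytes had 3 members with an LPS difference in place of 5, 0 in place of 2 differed between genotypes after LPS, and the effect differed in 1 in place of 4, and in 8 in place of 3 in microglia. The same setting reversed log2 ratios: Slc16a1 in APOE4 astrocytes to −0.028, and in microglia Slc2a1 to −0.027 and Pfkm to 0.88 in APOE3, Gpi1 to −0.17 and Slc16a7 to 0.16 in APOE4, and Pfkm between genotypes after LPS to −2.58. Ldhb in APOE4 oligodendrocytes reversed to −0.56 at Leiden resolution 2 and to −0.17 with all clusters holding oligodendrocyte markers. That setting and the one without cells of many microglial marker UMIs were chosen after seeing the data. The cause of these changes was not tested.

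Between genotypes in NaCl, where 1 member differed, endothelial cells gave 3 with doublets kept, 4 and 7 measured from 10 UMIs and 1 UMI, 2 with each cell weighing the same, and 0 at resolution 2 or without cells of many microglial marker UMIs. Oligodendrocytes gave 0 with each cell weighing the same and 2 with doublets kept, at least 2000 UMIs, at most 10% mitochondrial UMIs, members among the variable genes, either lower limit of UMIs, or all oligodendrocyte clusters. Between genotypes after LPS, astrocytes gave 4 from 1 UMI, microglia (1 reported) 7 with doublets kept and 2 at resolution 2, endothelial cells (6 reported) 3 with doublets kept, 12 at resolution 2 and 11 with either lower limit, and oligodendrocytes (2 reported) 5 with at most 10% mitochondrial UMIs or at resolution 2 and 6 with all oligodendrocyte clusters. The LPS effect differed between genotypes in 10 members in microglia with doublets kept, in endothelial cells (8 reported) in 5 with at least 2000 UMIs, 13 at resolution 2 and 4 with each cell weighing the same, and in oligodendrocytes (4 reported) in 7 at resolution 2. Without clusters mostly of 1 library, LPS comparisons of endothelial cells and oligodendrocytes were not run, since under 50 cells would remain. Depth limits members with few UMIs, such as endothelial Slc16a3.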

Other observations

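Clusters 10 and 13, without a name, held members above and below their microglial levels in the LPS libraries. Cluster 10, led by Marco, Saa3 and Ccl5, held 191 cells of APOE3 LPS and 2091 of APOE4 LPS. There Gapdh stood at 1112 and 1588 CPM, Pkm at 279 and 407, Pfkfb3 at 261 and 317, Hk2 at 222 and 229.6 and Ldha at 169 and 283. In the microglia of the same libraries Gapdh stood at 943 and 1118 CPM, Pkm at 208 and 248, Hk2 at 285 and 306 and Pfkfb3 at 388 and 396. Gapdh, Pkm and Ldha were thus higher in cluster 10 than in microglia, and Hk2 and Pfkfb3 were lower. Cluster 13, led by Ccl5, Lcn2 and Ctla2a, held 5965 cells of APOE4 LPS, and there Gapdh stood at 1213 CPM, Pkm at 306 and Hk2 at 138. In neurons, Hk1 made up 99.5%, 86.6%, 98.2% and 56.4% of the UMIs of Hk1 and Hk2, lowest in APOE4 LPS. This share was lowest in APOE4 LPS also in ependymal cells (69.5%), choroid plexus (70.6%), endothelial cells (77.5%) and pericytes (84.8%). In oligodendrocytes it was not, with 64.0% in APOE3 LPS and 65.3% in APOE4 LPS. No doublets were removed from APOE4 LPS, and the part of microglial RNA in these shares was not tested.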
